A study of Arabidopsis thaliana with 6 samples.

Results

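Fructose-bisphosphate aldolase is encoded in Arabidopsis thaliana by the 8 genes FBA1 to FBA8, and all 8 were found by locus identifier among the 24487 genes of the deposited tables. FBA1 (AT2G21330), FBA2 (AT4G38970) and FBA3 (AT2G01140) are the 3 plastid members, and FBA4 (AT5G03690), FBA5 (AT4G26530), FBA6 (AT2G36460), FBA7 (AT4G26520) and FBA8 (AT3G52930) are the 5 cytosolic members. The family was chosen by the measured levels of FBA5, which differed far between the genotypes, so the differences of its members between genotypes are given as a description, without p-values.

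RNA was sequenced from seedlings of 2 genotypes, wild type and the mutant labelled atino80-6, with 3 libraries each. Both genotypes were grown on agar without light for 4 days at 22 °C after a cold, dark period, and the RNA is that of whole seedlings. The name of the line points to INO80 (AT3G57300), the ATPase of a chromatin remodelling complex, but the labels say neither what kind of lesion the allele is nor which accession is the background. The labels also do not say whether the replicates were separate cultures, so p-values measure only the spread between these samples.

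Aldolase joins or splits sugar phosphates in a reversible step between fructose bisphosphate and the triose phosphates. In the chloroplast the enzyme works in the Calvin-Benson cycle, where it builds fructose bisphosphate and sedoheptulose bisphosphate from smaller sugar phosphates. In the cytosol the same reaction serves glycolysis in one direction and gluconeogenesis and sucrose synthesis in the other. Seedlings in darkness do not photosynthesise and live on their seed reserves.

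The libraries held between 18446028 and 24156610 reads. INO80 itself held 5586, 6173 and 5758 normalized counts in wild type and 28174, 33013 and 33322 in the libraries labelled atino80-6, which is higher and not lower in the line named after it. Its log2 change was 2.43 ± 0.10 (SE; limma adjusted p = 2.8e-06, n = 3 per genotype), so every direction rests on the labels as deposited. Across the 20222 genes tested, 34.2% passed the threshold of 0.05 for the adjusted p in limma, 17.7% higher and 16.6% lower in atino80-6. Within the genotypes wild type 1 and atino80-6 3 stood apart from their replicates, with a chi-square per degree of freedom of 20.4 to 23.1 against the others, while wild type 2 and 3 stood at 5.82 and atino80-6 1 and 2 at 8.11. Without both of these libraries the log2 differences were 7.87 for FBA5, 5.14 for FBA1, 3.21 for FBA7, 2.89 for FBA2, 0.64 for FBA3, 0.12 for FBA6, -0.04 for FBA4 and -0.09 for FBA8, and FBA3 was then past the threshold. Shoot markers, among them ATML1, PDF1 and the YABBY gene YAB3, were detected in both genotypes, with summed levels of 32939 to 35364 normalized counts in wild type and 29764 to 34295 in atino80-6. Of these 9 markers 1 rose, KCS6, by 0.30 on the log2 scale (limma adjusted p = 0.037). PDF1 and AS1 were the 2 that fell, by 0.44 and 0.40 (limma adjusted p = 0.012 for each). The 33.3% called is about the share of all tested genes, 34.2%. The part of these markers in the aldolase differences was not tested.

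FBA5 was almost silent in wild type and well expressed in atino80-6. In wild type it had 2, 8 and 2 reads, that is 0.0456, 0.203 and 0.0456 FPKM (reads scaled to gene length and, by the authors, to library depth). In atino80-6 there were 827, 1382 and 797 reads, or 25.2, 35.9 and 23.6 FPKM. The genotypes were far apart, and atino80-6 2 was the highest library. In normalized counts the means were 3.77 ± 3.50 and 1083 ± 256 (SD, n = 3 each), a ratio of 287. The exact 95% interval of that ratio was 173 to 587, which covers counting error only and rests on 12 wild type reads. The log2 difference, with a pseudocount of 1, was 8.04 ± 0.44 (SE), and the authors' deposited table gave 8.22 for it.

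With a pseudocount of 1, 0 of the genes tested had a larger log2 difference than FBA5. AT2G15020, which had no wild type reads, was at 7.91 and above FBA5 under other settings, at 8.90 against 8.26 with a pseudocount of 0.5, at 9.04 against 8.32 in limma voom and at 7.82 against 7.81 after quantile normalization. No other gene in the tables was as low as FBA5 in wild type and as high as FBA5 in atino80-6. By wild type level FBA5 stood at percentile 0.495 of the tested genes, and by level in atino80-6 at percentile 77.2. Tested genes had a mean of at least 10 over the 6 libraries, which FBA5 reached only through atino80-6. Its low position in wild type thus depends on that filter. These positions describe the values for which the gene was chosen.

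FBA7, the cytosolic aldolase gene next to FBA5, had a level that was low in wild type and higher in atino80-6. It held 1.14, 0.740 and 0.974 FPKM in wild type and 5.79, 11.2 and 6.55 FPKM in atino80-6. The genotypes did not overlap, and atino80-6 2 was again the highest. The mean of normalized counts went from 40.2 ± 8.48 to 332 ± 124 (SD, n = 3 each), 8.26-fold, with a log2 difference of 2.97 ± 0.27 (SE). Per length, FBA5 was below FBA7 in each wild type library, with FBA5 to FBA7 ratios of 0.0400, 0.275 and 0.0468. In atino80-6 FBA5 was above FBA7 in each library, with ratios of 4.35, 3.19 and 3.60.

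**Figure D1:**
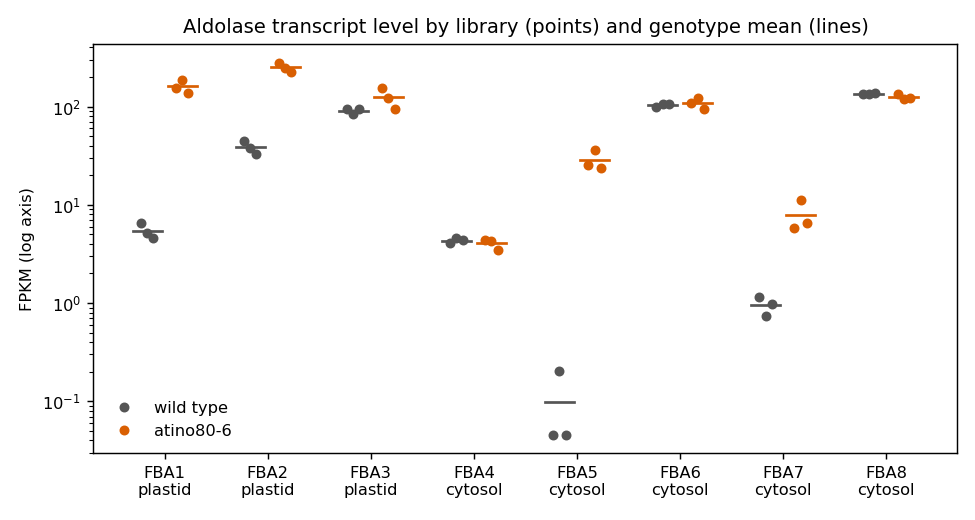
FPKM on a log axis for each aldolase gene in the 3 wild type libraries (grey) and the 3 libraries labelled atino80-6 (orange), with genotype means as lines. FBA5 went from 0.0456 to 0.203 FPKM in wild type to 23.6 to 35.9 in atino80-6. FBA1, FBA2 and FBA7 were also apart, while FBA4, FBA6 and FBA8 overlapped. FBA3 was barely apart, with at most 94.6 FPKM in wild type and at least 94.8 in atino80-6.

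The other cytosolic members had nearly the same level in both genotypes. FBA8, the most abundant aldolase transcript of wild type, held 133, 133 and 136 FPKM there and 133, 120 and 123 in atino80-6. FBA6 held 99.3, 105 and 105 FPKM in wild type and 108, 121 and 94.0 in atino80-6. FBA4 was weakly expressed throughout, between 4.05 and 4.60 FPKM in wild type and between 3.47 and 4.42 in atino80-6. For all 3 genes the libraries of the genotypes overlapped. Their log2 differences were -0.09 ± 0.08 for FBA8, 0.06 ± 0.10 for FBA6 and -0.10 ± 0.14 for FBA4 (SE), and none was past the threshold.

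Among the plastid members FBA1 and FBA2 were the ones that differed most. FBA1 held 6.55, 5.12 and 4.55 FPKM in wild type and 156, 187 and 138 in atino80-6. Its mean of normalized counts was 237 ± 45.1 in wild type and 7027 ± 1090 in atino80-6 (SD, n = 3 each), 29.7-fold higher, and the log2 difference was 4.89 ± 0.15 (SE). In wild type FBA1 was a gene of middling level, at percentile 41.6 of the tested genes, and in atino80-6 it was at percentile 98.1.

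FBA2 held 44.3, 38.1 and 32.7 FPKM in wild type and 280, 246 and 225 in atino80-6. Its normalized counts rested on a higher start, 1827 ± 275 against 11921 ± 1313 (SD, n = 3 each), 6.52-fold, with a log2 difference of 2.71 ± 0.13 (SE). FBA3 was the plastid member with a high level in both genotypes, 94.6, 83.5 and 93.9 FPKM in wild type and 155, 122 and 94.8 in atino80-6. The lowest atino80-6 library of FBA3 lay just above the highest wild type library, so the genotypes barely separated, and the spread in atino80-6 was wide. Its log2 difference of 0.43 ± 0.16 (SE) was not past the threshold in limma. It was past the threshold in limma also without atino80-6 3 alone, where the difference was 0.60, and in the authors' deposited table, where it was 0.45.

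In total 4 of 8 members were past the threshold, all 4 higher in atino80-6 (FBA1, FBA2, FBA5 and FBA7), and 0 were lower, beside 17.7% of all tested genes that were higher. The authors' deposited table put 5 members past 0.05, the same 4 and FBA3. The genotypes did not overlap for 5 of 8 members, beside 48.3% of all tested genes. The median log2 difference was 1.57 over the 8 members and 0.00 over all tested genes. Since the family was chosen for this contrast, these counts describe it and carry no weight as evidence.

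Ordered by level per length, the wild type pool was led by FBA8 (134 FPKM on average), FBA6 (103) and FBA3 (90.7), followed by FBA2 (38.4), FBA1 (5.41), FBA4 (4.33), FBA7 (0.952) and FBA5 (0.0982). Every neighbouring pair in that order was apart over the 3 libraries except FBA1 and FBA4. In atino80-6 the order was FBA2 (250 FPKM), FBA1 (160), FBA8 (125), FBA3 (124), FBA6 (108), FBA5 (28.2), FBA7 (7.86) and FBA4 (4.05). There FBA8 overlapped FBA3, and FBA3 overlapped FBA6, so the order among those 3 was not resolved, and the range of FBA1 also overlapped that of FBA3. By its mean FBA1 stood in the fifth place in wild type and in the second in atino80-6, and FBA5 in the last place and in the sixth.

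The summed level of the 8 genes was 382, 371 and 377 FPKM in the wild type libraries and 867, 848 and 708 in those labelled atino80-6. The mean went from 377 ± 5.95 to 808 ± 86.9 FPKM (SD, n = 3 each), 2.14-fold. Most of the added transcript was plastid-type, since the plastid sum went from 134 ± 9.72 to 535 ± 68.8 FPKM and the cytosolic sum from 242 ± 4.64 to 273 ± 21.3 (SD, n = 3 each). The plastid members made up 38.0%, 34.2% and 34.8% of the pool in wild type and 68.1%, 65.5% and 64.6% in atino80-6. Wild type thus had a mostly cytosolic aldolase pool and atino80-6 a mostly plastid one, with no overlap of the libraries.

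FBA5 took 0.0119%, 0.0549% and 0.0121% of the pool in wild type and 2.90%, 4.23% and 3.34% in atino80-6. Of the cytosolic pool alone it took 0.0404% ± 0.0373 in wild type and 10.3% ± 1.73 in atino80-6 (SD, n = 3 each). FBA8 and FBA6 together remained the main cytosolic transcripts in both genotypes. Their shares of the whole pool were lower in atino80-6, 15.6% ± 1.59 against 35.5% ± 0.764 for FBA8 and 13.3% ± 0.901 against 27.4% ± 1.25 for FBA6 (SD, n = 3 each), at levels that overlapped between genotypes. The large relative difference of FBA5 was thus a small part of the family's total. In whole seedlings, more cells with a transcript and more transcript per cell cannot be told apart.

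**Figure D2:**
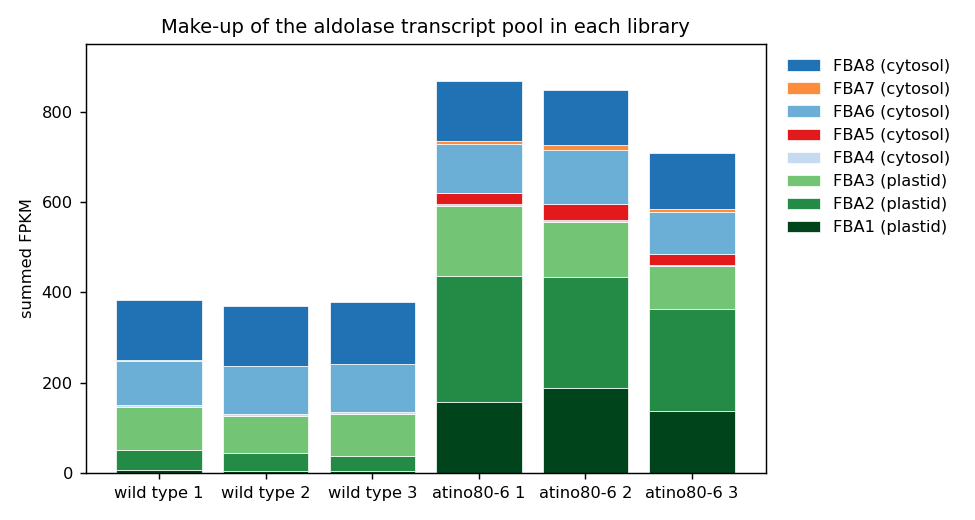
Summed FPKM of the 8 aldolase genes in each library, stacked by gene, with plastid members in green and cytosolic members in blue, red and orange. The bars reach 371 to 382 FPKM in wild type and 708 to 867 in atino80-6, and the green share grows from 34.2% to 38.0% to 64.6% to 68.1%.

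The coding sequences in RefSeq's annotation of the assembly TAIR10.1 sort the family into related genes, which bears on how surely reads are assigned. FBA5 and FBA7 were identical at 89.9% of aligned bases, FBA1 and FBA2 at 84.1%, and FBA6 and FBA8 at 84.0%. FBA4 was closest to FBA6 (79.4%), and FBA3 to FBA1 (73.6%). Between plastid and cytosolic members identity ran from 61.3% to 65.4%. The members past the threshold were the FBA5 and FBA7 pair and the FBA1 and FBA2 pair. FBA3 had a log2 difference of 0.43 and was not past it, and FBA4, FBA6 and FBA8 were between -0.10 and 0.06. The family was chosen for this contrast, and whether likeness in sequence goes with the difference was not tested. FBA5 and FBA7 were less like FBA6 (71.0% and 69.7%) than FBA4 was.

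Despite this likeness, 0 of the 1028 windows of 50 bases in the coding sequence of FBA5 (1077 bases) occurred in any other member, and the same held for each of the other 7 genes. The length of the reads is not given in the sources used here, and untranslated parts were not compared. FBA7 and FBA5 lie head to tail on the same strand with no gene between them, and the end of FBA7 and the start of FBA5 overlap by 109 bases of annotated exon. How reads in that stretch were counted is not given, so a part of the FBA7 count could be FBA5 reads or the reverse, and its size was not tested.

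The annotated genes around FBA7 and FBA5 that were measured did not pass the test, which 34.2% of all tested genes passed. Whether the difference is confined to the pair was not tested. Of 3 neighbours on each side, 4 were in the tables. CPSUFE (AT4G26500), which encodes a chloroplast protein of iron-sulfur assembly, held 223, 205 and 220 normalized counts in wild type and 216, 245 and 188 in atino80-6. UKL4 (AT4G26510), a uridine kinase-like gene, held 486, 410 and 443 against 480, 522 and 477. On the other side AT4G26540, a receptor-like kinase gene, had a log2 change of -0.17 ± 0.10 (SE; limma adjusted p = 0.21). AT4G26550, a gene of vesicle transport, had -0.22 ± 0.11 (SE; limma adjusted p = 0.16), with each atino80-6 library below each wild type library. UKL4 and CPSUFE did not pass either (limma adjusted p = 0.29 and 0.98).

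**Figure D3:**
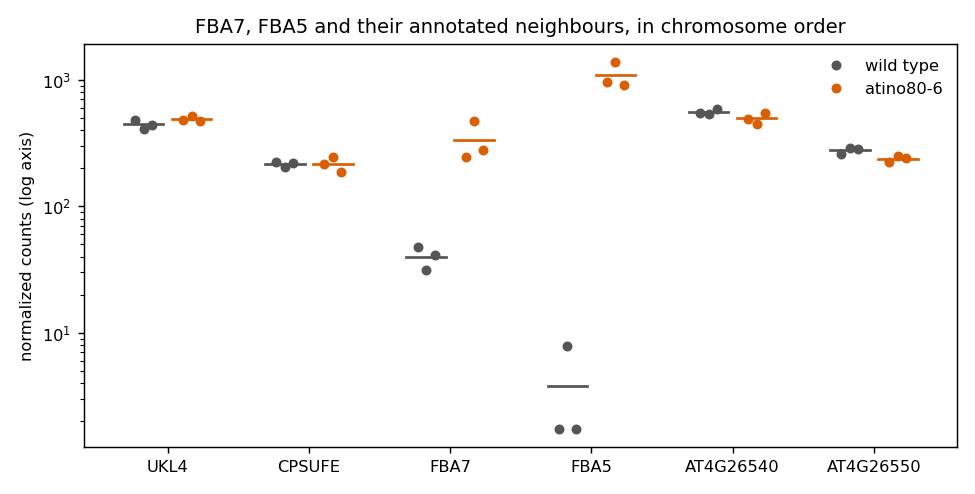
Normalized counts on a log axis for FBA7, FBA5 and the 4 of 6 nearest annotated genes that were in the tables, in chromosome order, with points for libraries and lines for genotype means. The 4 neighbours lie between 188 and 584 in all libraries, while FBA7 and FBA5 are separated by genotype.

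The 5 genes whose values over the 6 libraries were most like those of FBA5 were AT2G15020, THI2.2, AT1G70820, CIPK20 and CA1. Likeness was measured as the root mean square difference of log2 normalized counts after each gene was centred on its own mean, and ran from 0.59 for AT2G15020 to 0.94 for CA1. AT2G15020, of unknown function, was without reads in all 3 wild type libraries (0) and held 252, 240 and 225 normalized counts in the others. CA1, a chloroplast carbonic anhydrase, held 157, 208 and 116 normalized counts in wild type and 13546, 13938 and 10985 in atino80-6. THI2.2, a thionin, had reads in wild type 2 alone among the wild type libraries (9.76 normalized counts) and between 316 and 435 normalized counts in atino80-6. AT1G70820, annotated as a putative phosphoglucomutase, had 2 wild type reads in all and 124, 110 and 149 normalized counts in atino80-6. CIPK20, a protein kinase, had 4 wild type reads in all and 244, 161 and 192 normalized counts in atino80-6. With so large a step between genotypes, this measure mostly picks genes with a similar step. Of the other aldolases FBA1 ranked 40, FBA7 196 and FBA2 236 by likeness to FBA5.

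**Figure D4:**
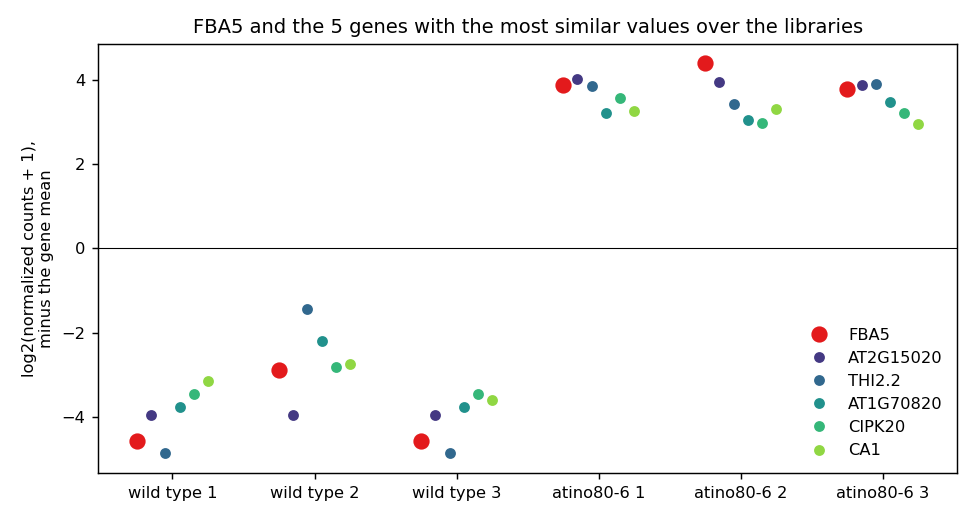
Log2(normalized counts + 1) minus the gene's mean, for FBA5 (large red points) and the 5 genes most like it, in each of the 6 libraries. All 6 genes lie below their mean in the 3 wild type libraries and above it in the 3 libraries labelled atino80-6, and FBA5 is highest in atino80-6 2.

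The enzymes that work beside the plastid aldolases were mostly higher in atino80-6. Of 17 other Calvin-Benson cycle genes tested, Rubisco apart, 14 rose, 1 fell and 2 did not pass, with a median log2 change of 1.52, beside 17.7% of all tested genes higher, 16.6% lower and a median of 0.00, and 2 fell without atino80-6 1. GAPB (AT1G42970), a subunit of the plastid dehydrogenase that makes the triose phosphates, had a wild type mean of 1033 ± 182 normalized counts and an atino80-6 mean of 13237 ± 1352 (SD over 3 libraries), a 12.8-fold rise (limma adjusted p = 1.4e-06). GAPA (AT3G26650), its partner subunit, rose 5.04-fold (adjusted p = 8.1e-06 in limma). CP12-2 (AT3G62410), a small protein that ties this dehydrogenase to phosphoribulokinase, held 122, 121 and 124 normalized counts in wild type and 1173, 1650 and 1225 in atino80-6, an 11.0-fold rise (limma adjusted p = 1.9e-06).

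HCEF1 (AT3G54050), the plastid fructose bisphosphatase that acts on the product of aldolase, held 479, 430 and 373 normalized counts in wild type against 2132, 2403 and 2018, a 5.11-fold rise (limma adjusted p = 3.9e-06). The next 4 genes were chosen for naming after their values were seen. SBPASE (AT3G55800), which acts on the other aldolase product, rose 4.75-fold (limma adjusted p = 8.4e-06), and TIM (AT2G21170), the plastid triose phosphate isomerase, 1.42-fold (0.0015). CP12-3 (AT1G76560) was the member that fell, 1.57-fold (limma adjusted p = 0.0012). The second plastid fructose bisphosphatase gene, AT5G64380, held 185 normalized counts in wild type and 212 in atino80-6 (limma adjusted p = 0.33).

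Genes of cytosolic glycolysis showed small differences in both directions. Of 25 tested members 6 rose, 4 fell and 15 did not pass, with a median of 0.17. That is 40.0% called, near the 34.2% of all tested genes. The largest was a fall, that of AT1G76550, an alpha subunit of the pyrophosphate-dependent phosphofructokinase, 1.73-fold (log2 change -0.79 ± 0.08, SE; limma adjusted p = 0.00015). AT1G20950, the other listed alpha subunit gene, was named after its values were seen. It had a log2 change of 0.20 ± 0.08 (SE; limma adjusted p = 0.083). HXK2, a hexokinase, rose 1.58-fold, the cytosolic phosphoglucose isomerase gene AT5G42740 rose 1.49-fold and PFK1, a phosphofructokinase, fell 1.40-fold (limma adjusted p at most 0.0055 for these 3). Of the cytosolic dehydrogenases that follow aldolase, GAPC2 rose 1.37-fold (limma adjusted p = 0.0039). GAPC1 held 8146, 7899 and 8460 normalized counts in wild type and 8305, 7871 and 7711 in atino80-6 (limma adjusted p = 0.75). Leaving out wild type 2 gave 3 members that rose, as did leaving out atino80-6 2, and the fit lacking both wild type 1 and atino80-6 3 gave 9.

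Plastid glycolysis genes outside the Calvin-Benson cycle rose in 0 and fell in 4 of 10 tested members, with a median of -0.22, beside 16.6% of all genes lower. In either direction 40.0% were called, near the 34.2% of all tested genes. GAPCP-2, a plastid glycolytic dehydrogenase, fell 1.95-fold, PFK5 1.37-fold, PKP-BETA1, a pyruvate kinase subunit, 1.22-fold and PFK4 1.21-fold (limma adjusted p at most 0.029 for these 4). GAPCP-1, the more abundant gene beside GAPCP-2, was named after its values were seen. It held 1327 normalized counts in wild type and 1255 in atino80-6 (limma adjusted p = 0.57). The count of members that fell was 2 without wild type 2, wild type 3 or atino80-6 2. PFK4 lost its call without any of wild type 1, 2 and 3 and atino80-6 2 and 3 (adjusted p in limma at most 0.11), and PKP-BETA1 without atino80-6 2 or either of wild type 2 and 3 (highest value 0.062).

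In the list of gluconeogenesis and sucrose synthesis 8 of 13 tested members rose, 1 fell and 4 did not pass, with a median of 0.32, beside 17.7% of all tested genes higher and 16.6% lower. SPP2 (AT2G35840), a sucrose phosphate phosphatase, held 401, 344 and 333 normalized counts in wild type against 984, 1060 and 856, a 2.69-fold rise (limma adjusted p = 3.7e-05). SPP1 (AT1G51420), the other listed gene of that enzyme, was named after its values were seen. It held 541 normalized counts in wild type and 482 in atino80-6 (limma adjusted p = 0.33). UGP2 (AT5G17310), which makes UDP-glucose, rose 2.30-fold (limma adjusted p = 8.6e-05). The cytosolic fructose bisphosphatase gene (AT1G43670), whose product acts right after aldolase on the way to sucrose, held 3518, 3522 and 3664 normalized counts in wild type against 7089, 6682 and 5617, a 1.81-fold rise (limma adjusted p = 0.00027). PCK2, a phosphoenolpyruvate carboxykinase, fell 1.77-fold, from a mean of 651 to 368 normalized counts (limma adjusted p = 0.0012). PCK1, the far more abundant gene of that enzyme, was named after its values were seen. It held 29642 normalized counts in wild type and 30297 in atino80-6 (limma adjusted p = 0.84). Without wild type 1, alone or together with atino80-6 3, the list had 2 members that fell. Without wild type 2 or atino80-6 2 it had 6 members that rose.

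Among 6 plastid phosphate translocators 2 rose and 0 fell, with a median of -0.13, and 1 fell without atino80-6 1. The 33.3% called is about the share of all tested genes, 34.2%. The triose phosphate translocator gene (AT5G46110, APE2), which exports the plastid products that cytosolic aldolase uses, held 2320, 1895 and 1598 normalized counts in wild type and 6439, 6845 and 6060 in atino80-6. That is a 3.33-fold rise (log2 change 1.75 ± 0.13, SE; limma adjusted p = 2.7e-05). PPT2, a phosphoenolpyruvate translocator and 1 of the 2 that rose, went from 1.20 to 34.7 normalized counts with 4 wild type reads in all. It reached the mean of at least 10 needed for testing only through atino80-6, so no p-value is given. Its log2 change was 4.04 ± 0.42 (SE), and it was 4.40 with a pseudocount of 0.5 and 2.68 with a pseudocount of 5.

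**Figure D5:**
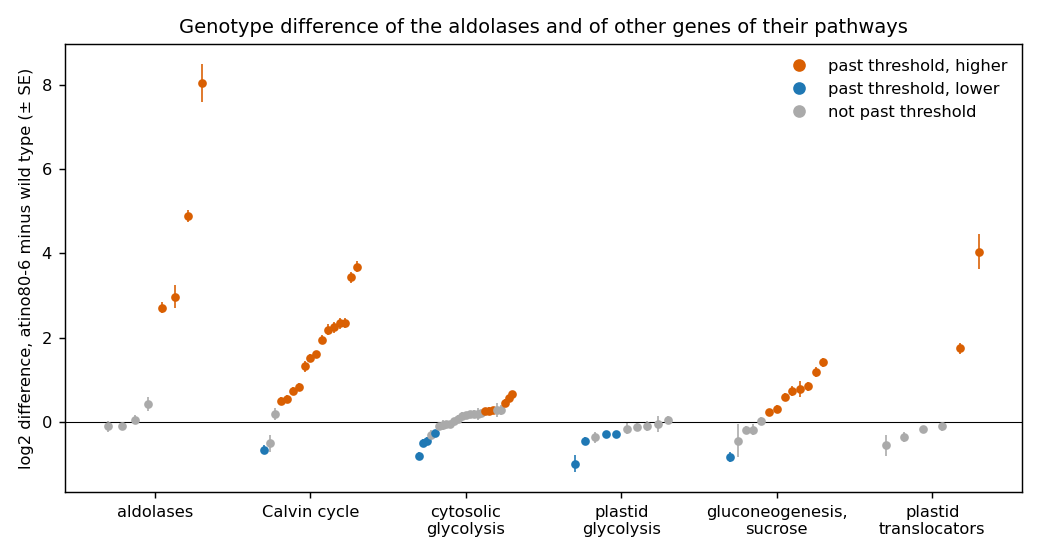
Log2 difference, atino80-6 minus wild type, with its standard error, for the 8 aldolases and for each tested member of the 5 pathway lists, coloured by whether the gene passed the threshold in limma. FBA5 at 8.04 is the highest point, the Calvin-Benson cycle genes reach 3.69, and genes of cytosolic and plastid glycolysis stay between -0.98 and 0.66.

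Few markers of other tissues passed the test. The shares called were 20.0% (seed), 28.6% (root) and 33.3% (guard cell), none above the 34.2% of all tested genes. The 5 seed storage markers, CRA1 among them, had higher means in atino80-6 but overlapped, with summed levels of 18981, 5791 and 21342 normalized counts in wild type and 42697, 63058 and 6760 in atino80-6, and 1 of 5 passed the test. The 7 tested root markers had summed levels of 83628 to 95729 normalized counts in wild type and 111191 to 125785 in atino80-6, where 1 rose (PYK10, 1.46-fold) and 1 fell, with a median log2 change of -0.14. Without PYK10, the most abundant of them, the sums overlapped, at 14306 to 23156 against 14880 to 18684. The summed levels of the 3 guard cell markers overlapped, at 511 to 638 against 631 to 706 normalized counts. Of the 3, 1 was higher, FAMA, whose libraries did not overlap between genotypes. The part of these seed, root and guard cell transcripts in the aldolase differences was not tested. No marker of these 4 lists was at 0 in all libraries.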

How the data were processed

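RNA-seq libraries of 3 wild type and 3 atino80-6 samples were analysed. The submitters' processing notes name the build TAIR10 and the tools HISAT2, featureCounts, DESeq2, cutadapt, FastQC, SAMtools and deepTools, without versions, and the annotation is not given in the sources used here. The authors deposited FPKM values scaled between libraries. Per the file headers their DESeq2 table holds a mean signal, the log2 fold change with its error, a score (the change over its error), p-values and adjusted p-values.

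Normalized counts were obtained from FPKM, rescaled so that each gene's mean equalled the deposited mean signal. The value of 1 read in each library was found from its lowest values. Expressed in it, all 146922 values were whole to 0.01 reads. These reads were used for depth, the comparison of replicates and the interval of the FBA5 ratio. They also served the simulated counts and the alternatives with equal library totals and limma voom. Log2 normalized counts plus 1 were fitted with limma 3.58.1 in R 4.3.3 (genotype, empirical Bayes with a trend) for the 20222 genes with a mean of at least 10, with two-sided p-values adjusted by Benjamini-Hochberg over these genes and a threshold of 0.05. "Rose" and "fell" mean past that threshold. The design had assumed a normalized value per gene. It was applied to these normalized counts, and FPKM served to compare levels between genes. The fit was also run on simulated counts with the same dispersion for every gene and few changed genes. These settings differ from the data, so that run checks the code and not the error rate here.

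Gene names, neighbours and coding sequences came from RefSeq's TAIR10.1 (24255 genes, 99.1%, matched). Because the authors' build is TAIR10, no coordinates or sequences are printed. Coding sequences were aligned globally with Biopython 1.88. Members, gene lists and tests were chosen with earlier results of these data known. Named from each list were the called members with the largest change, up to 4, and GAPC1, GAPC2 and both listed fructose bisphosphatases HCEF1 and AT1G43670. Also named were INO80, the 3 nearest genes on each side and the 5 genes most like FBA5. Alternatives were pseudocounts of 0.5 and 5, other filters, 2 other scalings, limma voom on the reads, the repeat number as a block and libraries left out. Intervals cover counting error only, and 3 reads in a library corresponded to 2.62 to 3.5 normalized counts.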

Additional observations from a re-analysis of the deposited data

How the results depend on the processing

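The directions of FBA1, FBA2, FBA5 and FBA7 and their side of the threshold were the same under all 15 alternatives. FBA4, FBA6 and FBA8 stayed short of it under all 15, and FBA3 passed under 2. All 15 refit the contrast for which the family was chosen, so they describe the fit and are no evidence for the differences. The difference of FBA5 was 7.00 with a pseudocount of 5 and 7.76 to 8.60 with single libraries left out, since it rests on 12 wild type reads. FBA1 ranged from 4.77 to 5.04 without single libraries and stood at 5.14 without both wild type 1 and atino80-6 3, and FBA8 at -0.16 after quantile normalization. The share of FBA5 in the pool of atino80-6 was 3.12% to 3.78% without single libraries.

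With single libraries left out, the calls over all genes ranged from 2534 to 3860 higher and from 2303 to 3556 lower. The Calvin-Benson list kept 14 higher and had 1 to 2 lower (2 without atino80-6 1). Cytosolic glycolysis had 3 to 7 higher and 3 to 5 lower, and plastid glycolysis 0 higher and 2 to 5 lower. The gluconeogenesis and sucrose list had 6 to 8 higher and 1 to 2 lower, and the translocators 2 higher and 0 to 1 lower. Cytosolic glycolysis had 9 higher without both wild type 1 and atino80-6 3. The gluconeogenesis and sucrose list had 2 lower with equal library totals and 2 without both wild type 1 and atino80-6 3. The translocators had 1 higher under the filter of 50 normalized counts, where PPT2 was not tested, and 1 lower with equal library totals or quantile normalization. Apart from that filter, the cause of these shifts was not tested.

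The repeat numbers did not pair the samples: deviations of same-numbered libraries correlated at 0.03, -0.19 and -0.10. With the replicate block, cytosolic glycolysis had 3 higher and plastid glycolysis 2 lower, and PFK4 and PKP-BETA1 lost their calls (limma adjusted p = 0.07 and 0.051); over all genes 3158 were higher and 2919 lower. Genes named after their values were seen, and markers, were left out of the next count. Of the comparisons of other named genes with their alternatives, 438 kept their side of the threshold, and 11 lost the call, all of PFK4 or PKP-BETA1. Genes called in both fits kept their direction, while the direction of genes not called in either was not counted.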
